A study of Mus musculus and Homo sapiens with 12 samples.

Results

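BCR, ABL1, NUP214, MYC and PVT1 are genes of the rearranged and amplified oncogene loci for which K562 cells are known. These 5 genes were found by Ensembl identifier among the 58676 genes of the K562 count tables, and the mouse genes of the same symbols, 5 of 54446, gave the contrast in mouse embryonic stem cells (mESC). Chromatin-associated RNA (caRNA), the RNA that stays with the chromatin fraction, was fragmented and sequenced either directly (Input) or after pull-down with an antibody against 5-methylcytosine (m5C-IP). All libraries came from wild-type cells with no treatment, as 3 Input and 3 m5C-IP libraries from each line, 12 in 4 groups. K562 is an established line of chronic myeloid leukaemia and was grown, per the labels, in medium with puromycin, and the mESC were grown with LIF, CHIR99021 and PD0325901 and cleared of feeder cells on gelatin. Groups were taken from the library titles, because the antibody label goes against them: it reads none for mESC m5C-IP and gives an m5C antibody for K562 Input. The study calls its replicates biological, but neither its methods nor the labels say whether these libraries came from separate cultures, so p-values measure the spread between these libraries, part of which may be technical.

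The Philadelphia translocation joins the 5′ part of BCR, a signalling protein gene, to ABL1, a non-receptor tyrosine kinase, and the fusion kinase signals without its normal restraint. In K562 the fused locus is known to be present in many copies together with NUP214, which encodes a protein of the cytoplasmic face of the nuclear pore and can itself be joined to other genes. MYC encodes a transcription factor that drives growth and ribosome production, and PVT1, the long non-coding RNA gene beside it, is often amplified with it. Counts per gene do not separate the fused from the unfused copies of a gene, and RNA counts do not measure copy number, so amplification itself was not measured here. In bulk libraries such as these, fewer cells with a transcript and less of it per cell cannot be told apart.

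In the GRCh38 annotation all 5 genes lie on the plus strand. BCR (ENSG00000186716.20) spans chr22:23179704-23318037, ABL1 (ENSG00000097007.17) spans chr9:130713043-130887675 and NUP214 (ENSG00000126883.16) spans chr9:131125573-131234663. MYC (ENSG00000136997.17) spans chr8:127735434-127742951 and PVT1 (ENSG00000249859.9) spans chr8:127794526-128187101. In mouse (GRCm38), where all are also on the plus strand, Bcr lies at chr10:75060592-75184921, Abl1 at chr2:31688376-31804227, Nup214 at chr2:31974436-32053975, Myc at chr15:61985391-61990374 and Pvt1 at chr15:62037986-62378096. The neighbours ABL1 and NUP214, and MYC and PVT1, are thus neighbours in both genomes.

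Gene counts ranged from 10477119 to 11865285 per library in K562 Input, from 93110 to 111286 in K562 m5C-IP, from 29007088 to 34752646 in mESC Input and from 473398 to 592324 in mESC m5C-IP. At these depths 3 counts equal 27.0 to 32.2 CPM (counts scaled to equal library totals of gene counts) in the K562 m5C-IP libraries, against 0.253 to 0.286 CPM in the K562 Input libraries. The K562 Input libraries differed from each other by about counting noise: chi-square per gene was 0.911, 0.919 and 1.03 for the 3 pairs, where 1 is counting noise alone, against 2.03 to 2.39 for mESC Input, 1.17 to 1.22 for K562 m5C-IP and 3.88 to 3.99 for mESC m5C-IP. They were kept as 3 libraries. Of single genes, only BCR, ABL1, NUP214, MYC and PVT1 were also followed with the K562 Input libraries summed as 1 sample. Where a call for one of them ends in that fit, this is named beside its value. For all other genes named below, whether a call in K562 holds in that fit was not tested. The K562 cells are labelled lymphoblast, but 10 of 12 erythroid and myeloid markers reached 1 CPM in K562 Input, with a summed level of 1233 to 1247 CPM, while 3 of 9 lymphoid markers did, with a summed level of 34.5 to 36.4 CPM. GATA1, the erythroid master regulator, stood at 87.0 ± 1.3 CPM (SD, n = 3), and HBG2, a fetal globin gene, was listed at 0 in all K562 libraries. In mESC Input 9 of 10 pluripotency markers reached 1 CPM, and 4 of 8 fibroblast markers did, with a summed level of 66.9 to 69.7 CPM. Sox2, a defining pluripotency factor, was listed at 0 in all mESC libraries. A listed 0 need not mean absent RNA, since genes within another gene of the same strand mostly got no count, as shown next. Whether this holds for HBG2 or Sox2 was not tested.

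The counts were made over gene bodies, introns included, and with strand. Of 89 human protein-coding genes lying wholly within another gene of the same strand with over 1000 Input counts, 7.87% had any count, against 87.8% of 337 such genes on the opposite strand. Of 145 such mouse genes on the same strand, 0 had a count. Reads in an overlap of genes of the same strand were thus mostly not counted for the nested gene, and whether they were counted for the longer gene was not tested. The same-strand genes within the members were small RNA genes or pseudogenes, of which FBXW4P1 in BCR, with 2.24 kb of overlap, was the longest in K562.

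In K562 Input, ABL1, the kinase gene, took 12669, 12226 and 11373 counts in replicates 1 to 3, or 1071 ± 13 CPM (SD, n = 3), and ranked 36th among the 30647 genes with a count. NUP214 took 10112, 9573 and 9159 counts, or 852 ± 22 CPM, and ranked 59th. BCR took 8887, 8672 and 7970 counts, or 754 ± 6.1 CPM, and ranked 82nd. PVT1 took 7671, 7417 and 6832 counts, or 647 ± 4.6 CPM, and ranked 111th. MYC took 628, 619 and 578 counts, or 53.9 ± 1.1 CPM, and ranked 4899th. These ranks are of counts per gene, so long genes rank high.

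Per kilobase of gene span the order changed. NUP214 had 7.81 ± 0.20 CPM per kb of span in K562 Input, MYC 7.17 ± 0.15, ABL1 6.13 ± 0.08, BCR 5.45 ± 0.04 and PVT1 1.65 ± 0.01. Neighbours in this order differed by more than their SDs. NUP214, MYC, ABL1 and BCR lay at or above the 96.9th percentile of all genes with a count, and PVT1 at the 81.7th. Per kilobase of exon union, which does not match the way the counts were made, ABL1 led with 153 ± 1.9 CPM per kb and MYC was last with 8.83 ± 0.19.

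The genes of the same symbols were lower in mESC Input, apart from Pvt1. Abl1 had 245 ± 2.4 CPM, Nup214 278 ± 7.2, Bcr 107 ± 3.5 and Myc 9.33 ± 0.50 (SD, n = 3), while Pvt1 had 1057 ± 20 CPM and ranked 43rd of 31544 genes. Per kilobase of span Nup214 had 3.50 ± 0.09 CPM, Pvt1 3.11 ± 0.06, Abl1 2.11 ± 0.02, Myc 1.87 ± 0.10 and Bcr 0.864 ± 0.028. In mESC Pvt1 thus stood above Myc per length, and in K562 PVT1 stood below MYC.

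**Figure D1:**
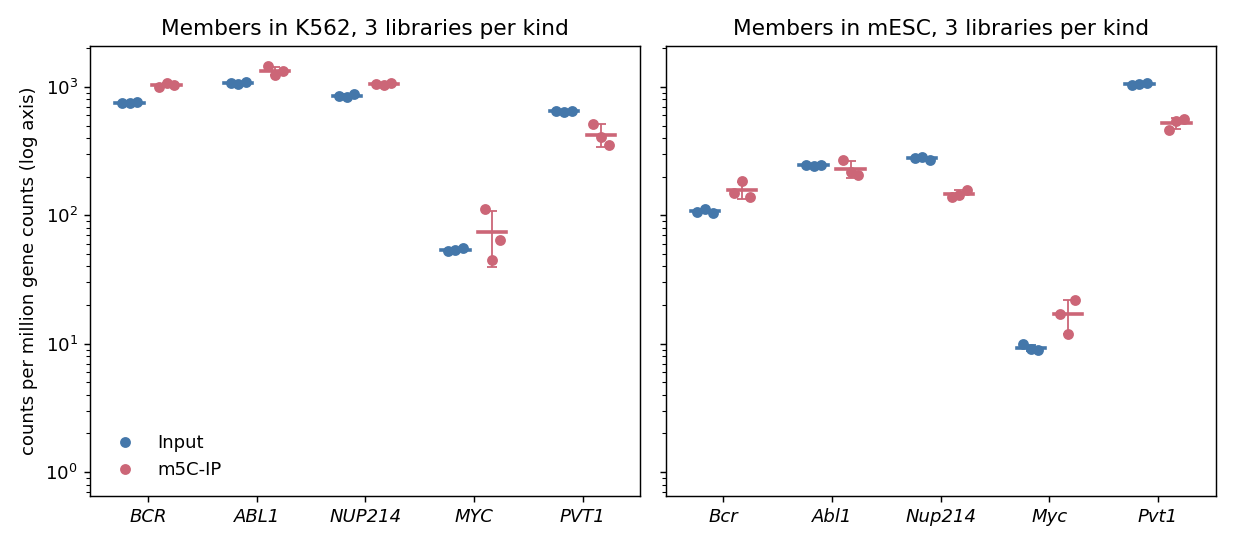
The CPM (log axis) of the 5 genes in each K562 library (left) and each mESC library (right). Points are libraries, bars are means and error bars are SD over 3 libraries, in blue for Input and red for m5C-IP. In K562 BCR, ABL1 and NUP214 lie higher in every m5C-IP library than in any Input library on this unscaled measure, PVT1 lies lower, and the MYC groups overlap. How many of all genes lie apart in this way was not counted.

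The contrast of the Input libraries asked how far the caRNA of these genes differs between the lines. Of the 5 genes, 4 were higher in K562 and 1 was lower in a fit over 12933 shared symbols, of which 44% were called higher and 49.4% lower at an adjusted p of 0.05. BCR was higher in K562 by a log2 of 2.82 (SE 0.02, adjusted p = 2.6e-54), which is 7.05-fold, MYC by 2.54 (SE 0.07, adjusted p = 9.4e-33), ABL1 by 2.13 (SE 0.02, adjusted p = 4.8e-53) and NUP214 by 1.62 (SE 0.02, adjusted p = 3.1e-46). PVT1 was lower in K562 by a log2 of -0.70 (SE 0.02, adjusted p = 1.7e-35). With an offset for gene span, chosen after seeing the data, the values were 2.66 for BCR, 1.95 for MYC, 1.54 for ABL1, 1.17 for NUP214 and -0.91 for PVT1. With the planned offset for exon length NUP214 fell to 0.26, ABL1 rose to 2.86 and PVT1 fell to -2.56. Cell line, organism and annotation cannot be told apart in this contrast.

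In K562 m5C-IP the same 5 genes gave few counts. ABL1 took 156, 139 and 123 counts, NUP214 114, 116 and 99, BCR 108, 119 and 97, PVT1 56, 45 and 33 and MYC 12, 5 and 6. In CPM, ABL1 was at 1338 ± 99, NUP214 at 1054 ± 11, BCR at 1037 ± 35, PVT1 at 426 ± 84 and MYC at 73.5 ± 34.0 (SD, n = 3). The m5C-IP libraries lay above every Input library for ABL1, NUP214 and BCR and below every Input library for PVT1, and those of MYC overlapped with Input. The share of all genes whose groups lie apart in this way was not counted, so how common this is remains unknown.

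The pull-down contrast in K562 asked whether a gene's caRNA was over- or underrepresented after m5C-IP. Only 2 of the 5 genes passed the test over 14522 genes. PVT1 fell by 0.81 on the log2 scale (SE 0.13, edgeR adjusted p = 2.7e-08), which is 1.75-fold lower, where 16.8% of all genes were called lower. With Input thinned to the m5C-IP depth PVT1 had -0.27 and lost its call (adjusted p = 0.30). BCR was higher by a log2 of 0.24 (SE 0.09, adjusted p = 0.034), where 15% of all genes were called higher. The shares called higher in K562 and in mESC include genes with almost no Input RNA. Such genes could pass the filter on low counts through their m5C-IP libraries alone, and their number was not counted. ABL1 had a log2 of 0.11 (SE 0.09, adjusted p = 0.37), NUP214 0.09 (SE 0.09, adjusted p = 0.50) and MYC 0.23 (SE 0.31, adjusted p = 0.61). The median log2 was 0.11 over the 5 genes and -0.17 over all genes tested. The call for BCR did not survive several other fits: with TMM factors set within bins of GC content BCR had a log2 of -0.14, and with the K562 Input libraries summed as 1 sample its adjusted p was 0.32. The call was also lost when K562 Input replicate 1, or any of the 3 K562 m5C-IP replicates, was left out (adjusted p 0.059 to 0.18).

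The same values before scaling, with an interval for counting error, show how much room these depths leave. The ratio of pooled CPM, m5C-IP over Input, was 1.38 for BCR (exact 95% interval 1.23 to 1.54), 1.25 for ABL1 (1.13 to 1.38), 1.24 for NUP214 (1.11 to 1.38), 0.663 for PVT1 (0.555 to 0.786) and 1.37 for MYC (0.864 to 2.06). For MYC, neither a gain nor a loss of this order was detectable at this depth. The scale that edgeR sets between libraries moves all 5 genes together. Its TMM factors were 0.923 to 0.932 in K562 Input and 1.07 to 1.09 in K562 m5C-IP. With library size alone, ABL1 had a log2 of 0.32 (adjusted p = 0.0025) and NUP214 0.31 (adjusted p = 0.012), and of all calls 64.7% were then higher, against 47.1% with TMM. That share was 57.1% with RLE scaling, 64.8% with DESeq2 and 68.2% with Input thinned to the m5C-IP depth. The median log2 of all genes moved from -0.17 to 0.05 with library size alone.

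In mESC 4 of the 5 genes were called lower in m5C-IP, where 42.1% of 20244 genes were called lower and 39.9% higher. Pvt1 took 218, 318 and 335 counts in m5C-IP, 522 ± 55 CPM, and fell by 1.98 on the log2 scale (SE 0.06, adjusted p = 3.4e-13). Nup214 took 66, 85 and 94 counts, 148 ± 10.0 CPM, and fell by 1.88 (SE 0.10, adjusted p = 5.2e-11). Abl1 took 128, 127 and 121 counts, 230 ± 35 CPM, and fell by 1.08 (SE 0.10, adjusted p = 3.6e-08). Bcr took 71, 108 and 82 counts, 157 ± 23 CPM, and fell by 0.42 (SE 0.12, adjusted p = 0.0050). Myc took 8, 7 and 13 counts, 16.9 ± 5.0 CPM, with a log2 of -0.11 (SE 0.32, adjusted p = 0.75).

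The mESC values depend more on the scale than those of K562. TMM factors were 0.705 to 0.722 in mESC Input and 1.39 to 1.42 in mESC m5C-IP, so that a gene with equal CPM in both kinds has a negative log2. On unscaled CPM Bcr was higher in every m5C-IP library than in any Input library, 138 to 184 against 105 to 111, and its log2 was 0.56 (adjusted p = 0.0014) with library size alone. Myc was also higher on unscaled CPM, 11.9 to 21.9 against 8.95 to 9.89, and the Abl1 groups overlapped. Nup214 and Pvt1 were lower in every m5C-IP library on unscaled CPM as well, 139 to 159 against 270 to 283 and 461 to 566 against 1035 to 1073. In mESC too, the share of all genes whose groups lie apart was not counted. With library size alone the median log2 of all genes moved from -0.17 to 0.80, and 67.2% of calls were higher, against 48.7% with TMM and 61.7% with thinned Input.

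**Figure D2:**
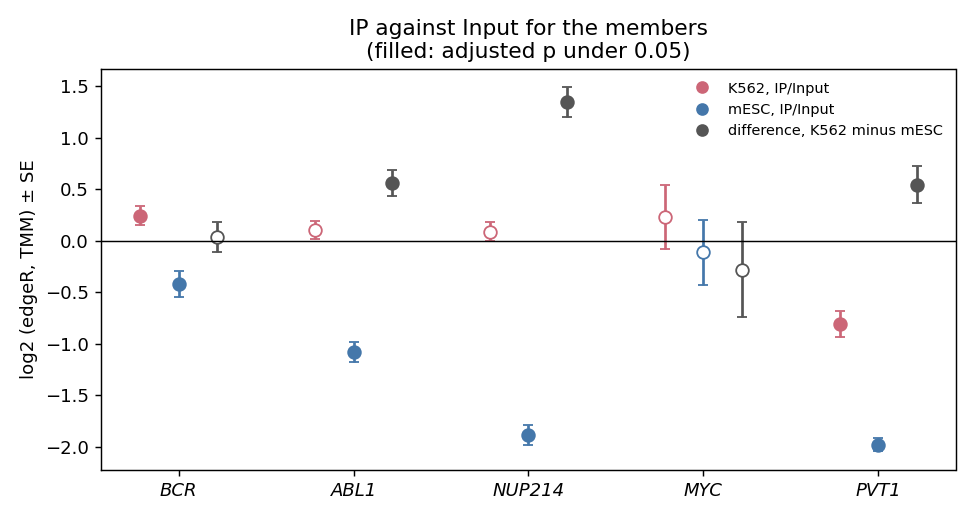
The log2 of m5C-IP over Input for each of the 5 genes in K562 (red) and mESC (blue), and their difference as fitted over all 12 libraries, K562 minus mESC (grey), with SE. Filled points have an adjusted p under 0.05. NUP214 has the largest difference, 1.35, and PVT1 is lower in m5C-IP in both lines, by 0.81 in K562 and 1.98 in mESC.

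Whether the pull-down effect differed between the lines was tested with an interaction term. Its scale was set over all 12 libraries, so its values are not the plain subtraction of the values within each line. NUP214 was higher in K562 relative to mESC by a log2 of 1.35 (SE 0.15, adjusted p = 2.3e-08), ABL1 by 0.56 (SE 0.12, adjusted p = 0.00068) and PVT1 by 0.55 (SE 0.18, adjusted p = 0.020). Of 14242 shared genes, 16.5% were called higher and 14.5% lower, and the median log2 of all was 0.17. BCR had a difference of 0.04 (SE 0.15, adjusted p = 0.92) and MYC of -0.28 (SE 0.46, adjusted p = 0.72). BCR was called lower in K562 with RLE scaling (-0.40, adjusted p = 0.041) and by DESeq2 (-0.40, adjusted p = 0.0051). NUP214 kept its call in every alternative run, with values of 0.89 to 1.41. ABL1 and PVT1 did not: with RLE scaling they had 0.12 (adjusted p = 0.54) and 0.11 (adjusted p = 0.72), and 35.3% of all calls were higher in place of 53.2%. The call for PVT1 also ended without K562 m5C-IP replicate 1 (log2 0.38, adjusted p = 0.24) or replicate 2 (log2 0.57, adjusted p = 0.069). With library size alone 40.0% of all calls were higher, with TMM within GC bins 43.0% and with thinned Input 38.9%. The median log2 of all genes was -0.27 with RLE scaling and -0.14 with library size alone.

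**Figure D3:**
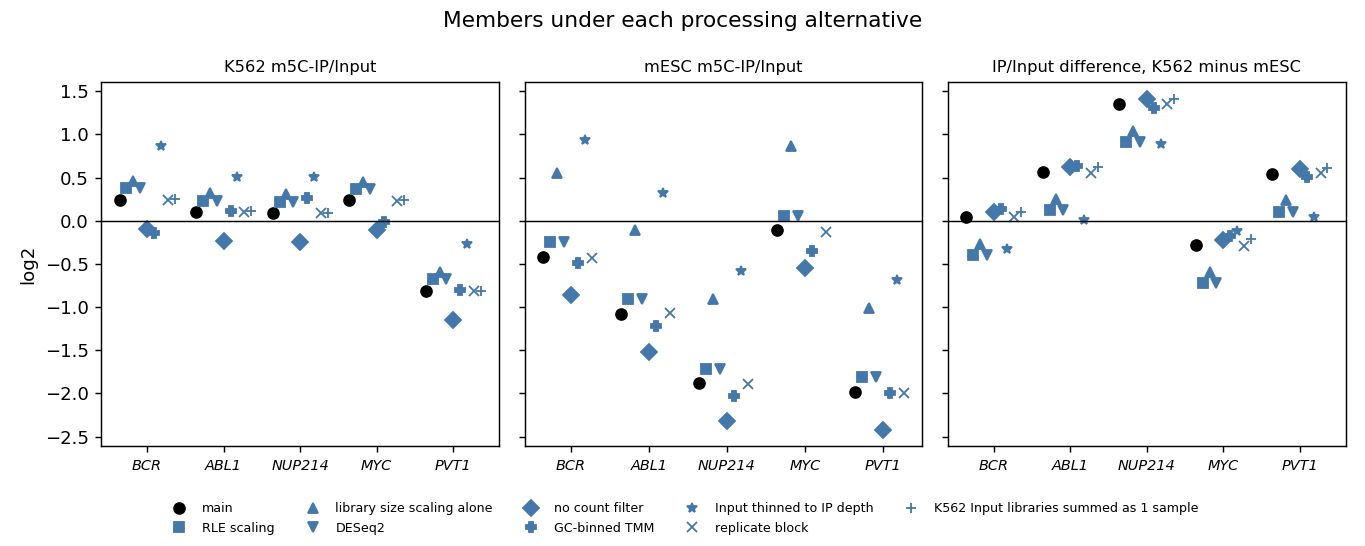
The log2 value of each gene for m5C-IP against Input in K562 (left), in mESC (middle) and for their difference (right) under each processing alternative, with the value reported here in black. NUP214 stays at or above 0.89 in the right panel, and BCR lies on both sides of 0 in all panels.

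A ratio of 2 genes within a library does not depend on the scale. PVT1 was lower relative to MYC and to ABL1 in the m5C-IP libraries of both lines. In K562 the log2 of the PVT1 to MYC ratio was 3.61, 3.58 and 3.56 in the Input libraries and 2.22, 3.17 and 2.46 in the m5C-IP libraries, a change of the mean of -0.97. In mESC it was 6.71, 6.86 and 6.91 in Input and 4.77, 5.51 and 4.69 in m5C-IP, a change of -1.84. The groups did not overlap in either line. An exact permutation test (two-sided) gave p = 0.1 in each, the smallest that 3 libraries against 3 allow. Adjusted over 20 such tests of ratios and shares it was 0.118. The MYC counts behind the ratios were 5 to 13 in the m5C-IP libraries.

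The PVT1 to ABL1 ratio, which rests on more counts and was added after seeing the data, was also lower in m5C-IP in both lines. Its log2 fell from -0.73 ± 0.01 in K562 Input to -1.67 ± 0.21 in K562 m5C-IP, and from 2.11 ± 0.04 to 1.19 ± 0.37 in mESC (SD, n = 3). The changes were -0.94 and -0.92 (exact two-sided permutation p = 0.1 for each).

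The ratio of NUP214 to ABL1, which lie on the same chromosome in both species, was lower in m5C-IP in mESC, while its K562 groups overlapped. In K562 it was 0.798, 0.783 and 0.805 in Input and 0.731, 0.835 and 0.805 in m5C-IP, so the groups overlapped (log2 change -0.01, exact two-sided permutation p = 0.9). In mESC it was 1.14, 1.16 and 1.10 in Input and 0.516, 0.669 and 0.777 in m5C-IP, with no overlap (log2 change -0.82, exact two-sided permutation p = 0.1). The BCR to ABL1 ratio changed by a log2 of 0.14 in K562, where the groups overlapped (exact two-sided permutation p = 0.4), and by 0.64 in mESC, where they did not (exact two-sided permutation p = 0.1). Among the counts of the 5 genes, PVT1 took 19.2 ± 0.1% in K562 Input and 10.8 ± 1.7% in K562 m5C-IP, and 62.3 ± 0.7% and 48.5 ± 3.8% in mESC.

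**Figure D4:**
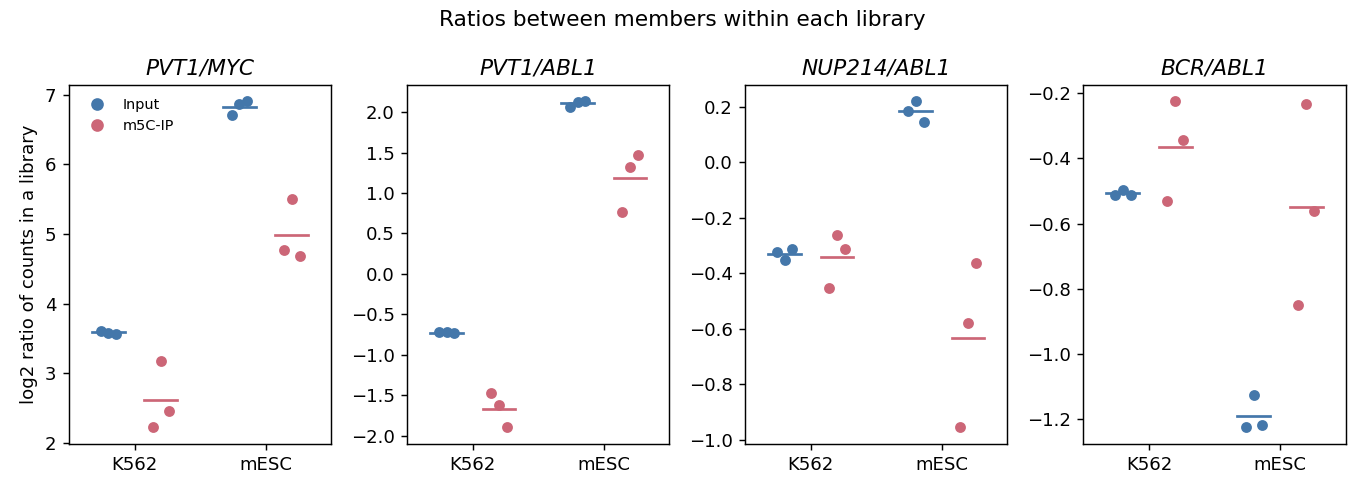
The log2 ratio of counts of PVT1 to MYC, PVT1 to ABL1, NUP214 to ABL1 and BCR to ABL1 in each library (points, with the group mean as a bar), in blue for Input and red for m5C-IP. PVT1 ratios are lower in m5C-IP in both lines, and the NUP214 to ABL1 ratio is lower in m5C-IP in mESC (log2 change -0.82) while the K562 groups overlap.

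Together the 5 genes took 0.338 ± 0.005% of all gene counts in K562 Input and 0.393 ± 0.018% in K562 m5C-IP (SD, n = 3). In mESC they took 0.170 ± 0.001% and 0.107 ± 0.003%. The share was higher in every m5C-IP library than in any Input library in K562 and lower in mESC (exact two-sided permutation p = 0.1 in each, adjusted 0.118).

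Peaks, which are stretches where reads pile up after pull-down, were available for the 3 mESC m5C-IP libraries, with 11146, 15404 and 15797 peaks. Pvt1 held 1 peak in each of the 3 replicates. Bcr held 2 in replicate 1, 2 in replicate 2 and 0 in replicate 3, and Abl1, Nup214 and Myc held 0. Requiring that the peak lie mainly inside the gene changed none of these counts. Among 996 mouse genes of 100 to 400 kb with at least 50 CPM in Input, 79.7% had a peak in at least 1 replicate, 51.8% in at least 2 and 25.5% in all 3. Of 14567 genes with at least 1 CPM, 41.1% had a peak in at least 1 replicate.

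The peaks of Pvt1 in replicates 1 and 2 overlapped each other, and that of replicate 3 lay elsewhere. The first is shown because it is the region of the 5 genes that recurred between replicates, and the second for contrast. Both regions are intronic in GENCODE M21. The shared region, chr15:62276893-62277147 (GRCm38), starts 239 kb from the Pvt1 start, and the part covered by both peaks, 159 bases, is in capitals. The region of replicate 3, chr15:62204281-62204430, starts 166 kb from the Pvt1 start. Both are printed 5′ to 3′ on the strand of Pvt1, the plus strand.
Pvt1 region of replicates 1 and 2: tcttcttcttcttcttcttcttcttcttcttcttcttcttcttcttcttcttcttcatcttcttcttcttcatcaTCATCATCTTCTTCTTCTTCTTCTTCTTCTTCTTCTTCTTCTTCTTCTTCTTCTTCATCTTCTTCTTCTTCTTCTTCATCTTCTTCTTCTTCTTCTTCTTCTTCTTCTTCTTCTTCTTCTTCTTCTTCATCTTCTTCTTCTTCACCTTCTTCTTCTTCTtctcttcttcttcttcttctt
Pvt1 region of replicate 3: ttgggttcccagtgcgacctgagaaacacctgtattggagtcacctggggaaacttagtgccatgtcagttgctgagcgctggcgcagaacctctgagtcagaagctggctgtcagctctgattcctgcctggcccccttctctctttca

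The shared region is a run of TTC repeats, and 100% of it is masked as repeat in the RefSeq genome sequence, against 12.7% of the replicate 3 region. On the strand of Pvt1 it holds 86 cytosines and no CpG, at a GC content of 33.7%. The peak lists record both of its peaks on the minus strand, on which the region holds 0 cytosines. In the replicate 3 region, also recorded on the minus strand, cytosines numbered 43 on the strand of Pvt1 and 40 on the other. Over all 19570 peaks that lie in a single gene, 40.7% were recorded on the strand of that gene. How the recorded sign relates to the strand of the RNA was not given in the sources used here.

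The 4 Bcr peaks were all intronic, 150 bases long, and each was found in 1 replicate. Those at chr10:75099716-75099865 and chr10:75106199-75106348 were masked as repeat over 100% and 53.3% of their length, that at chr10:75141123-75141272 over 38%, and that at chr10:75170950-75171099 over 0%. The last is shown because it is the only peak in the 5 genes that lies wholly outside annotated repeats.
Bcr region of replicate 1: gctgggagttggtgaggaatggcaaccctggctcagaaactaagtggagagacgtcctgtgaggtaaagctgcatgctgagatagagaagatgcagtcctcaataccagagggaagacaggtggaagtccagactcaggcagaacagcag
It holds 28 cytosines on the strand of Bcr and 51 on the minus strand, on which the peak was recorded.

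Some genes beside the members gave almost no Input RNA and still gave m5C-IP counts in K562, while others gave none. LAMC3, a laminin gene between ABL1 and NUP214, had 24 Input counts in all and 10, 11 and 5 counts in the m5C-IP libraries, 81.7 ± 24.5 CPM. FIBCD1, a gene for a membrane receptor that binds acetylated sugars, lies in the same interval and had 14 Input counts in all and 9, 4 and 1 m5C-IP counts. RSPH14 and RAB36, just below BCR in coordinate, had 32 and 10 Input counts, and 7, 10 and 6 and 6, 1 and 3 m5C-IP counts. With under 1 CPM in Input they could pass the filter on low counts through their m5C-IP libraries alone, so that their fitted difference was fixed by the filter and is not given as a test.

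Per kilobase of span this gives 0.958 m5C-IP CPM for LAMC3, 1.18 for FIBCD1, 0.853 for RSPH14 and 1.59 for RAB36. Among the 9696 K562 genes with under 1 CPM in Input and at least 10 kb of span, the median was 0 and the upper quartile 0.120, and these genes lay at the 98.5th, 99.1st, 98.0th and 99.6th percentiles. This measure and these genes were chosen after their values were seen. GC content moved with it: the GC content of these 4 genes was 53.7 to 59.2%, against a median of 42.1%. Among the 1405 such genes with a GC content of 50 to 60%, where the upper quartile was 0.344, the percentiles were 93.9 for LAMC3, 96.2 for FIBCD1, 92.3 for RSPH14 and 98.3 for RAB36. MMP11, above BCR in coordinate and of 57.8% GC, had 0 m5C-IP counts. FAM230I, CES5AP1, PCAT14, ENSG00000227755 and ENSG00000272578, also near BCR, had 0 as well. Near MYC and PVT1, POU5F1B had 0, and CASC8 and CASC11 had 0.104 and 0.068 m5C-IP CPM per kb. POU5F1B overlaps the longer gene PCAT1, and ENSG00000272578 the longer gene GUSBP11, each on the same strand. Both had 0 Input counts as well, so their 0 in m5C-IP need not mean absent RNA. The part of GC content, or of copy number, in these counts was not tested.

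In mESC the genes of the same symbols also gave m5C-IP counts without much Input RNA. Lamc3 had 0.884 m5C-IP CPM per kb, Fibcd1 0.708 and Rsph14 1.32, where the upper quartile of 7166 such genes was 0.477. Their percentiles among the 638 such genes of 50 to 60% GC were 64.7, 55.3 and 84.6. Other mouse neighbours of Bcr stood higher, Adora2a at 92.5 and Lrrc75b at 95.3, and Rab36, at 1.10 CPM in Input, was above the limit. In K562, PRDM12 and PRRT1B, near ABL1 and NUP214, stood at 83.0 and 61.3 among genes of like GC. Medians of the 2 lines differ, so the values are given side by side and the difference was not tested.

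**Figure D5:**
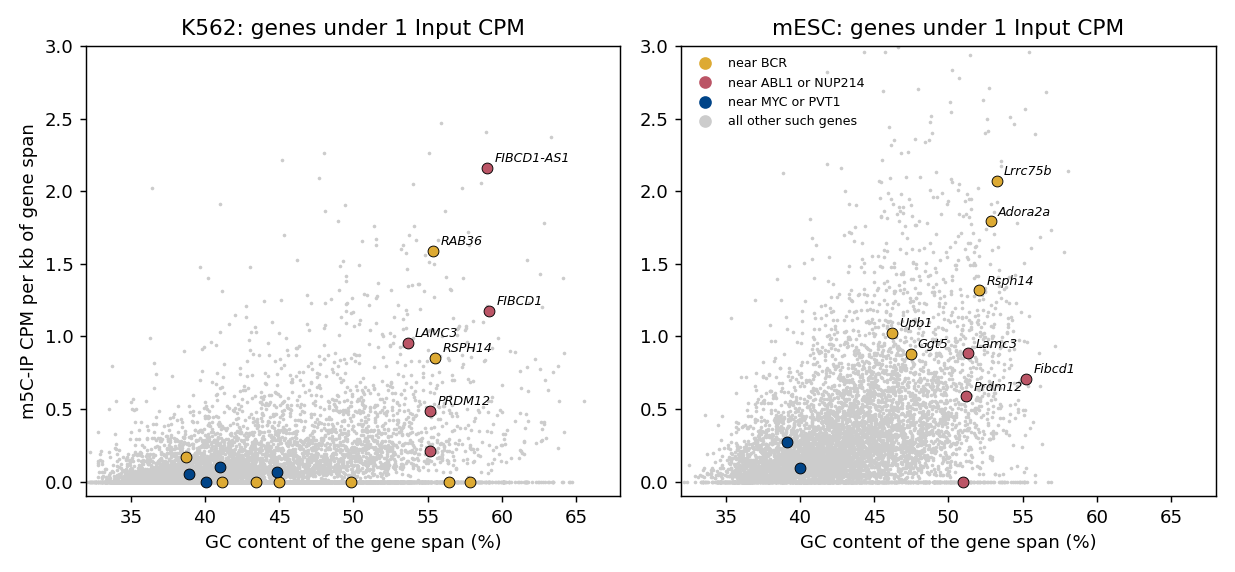
The m5C-IP CPM per kb of gene span against GC content for genes with under 1 CPM in Input and at least 10 kb of span, in K562 (left) and mESC (right). Coloured points lie within 500 kb of BCR (yellow), ABL1 or NUP214 (red) or MYC or PVT1 (blue), and grey points are all other such genes, those over 3 CPM per kb lying outside the plot. In K562 LAMC3, FIBCD1, FIBCD1-AS1, RSPH14 and RAB36 stand at 0.853 to 2.16, and the genes near MYC and PVT1 at 0.104 or less. MMP11, FAM230I, CES5AP1, PCAT14, ENSG00000227755 and ENSG00000272578, near BCR, lie at 0. ENSG00000272578, and POU5F1B near MYC, overlap a longer gene of the same strand, so their 0 need not mean absent RNA.

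Expressed neighbours did not share one direction. EXOSC2, an exosome subunit gene just below ABL1, had 54.1 ± 3.1 CPM in K562 Input and a log2 m5C-IP/Input of -0.38 (SE 0.36, adjusted p = 0.45), and its Input was lower in K562 than in mESC by a log2 of -0.13 (SE 0.04, adjusted p = 0.0057). FUBP3, the next tested gene below it, a regulator that binds single-stranded nucleic acid, fell by 0.58 in m5C-IP (SE 0.20, adjusted p = 0.017), and its Input was lower in K562 by a log2 of -0.43 (SE 0.02, adjusted p = 3.2e-20). On the far side of NUP214, FAM78A had an Input level higher in K562 by a log2 of 4.00 (SE 0.07, adjusted p = 3.3e-39) and PLPP7 a lower one, -0.42 (SE 0.17, adjusted p = 0.018). In Input, ABL1 thus was higher in K562 and both genes just below it were lower. The median Input log2 over all shared genes was -0.13, the value of EXOSC2, and 49.4% of these genes were called lower. CCDC26, a long non-coding RNA gene beyond PVT1, had 2361 ± 35 CPM in K562 Input and fell by 0.41 in m5C-IP (SE 0.07, adjusted p = 9.5e-07).

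XKR3 is known as a fusion partner of NUP214 in K562 and lies on chromosome 22, the chromosome of BCR. It was named after its values were seen. It took 1394, 1287 and 1153 counts in K562 Input, 113 ± 3.9 CPM, and 9, 15 and 9 counts in m5C-IP, with a log2 of -0.32 (SE 0.24, adjusted p = 0.34).

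Genes that work with the fusion kinase were lower in K562 m5C-IP more often than higher. Of 27 tested genes of a list of 30 for BCR-ABL1 signalling, 12 fell, 3 rose and 12 were not called, with a median log2 of -0.58 against -0.17 over all genes, of which 16.8% were called lower and 15% higher. By DESeq2 9 fell and 3 rose. PIK3CB, a PI3-kinase catalytic subunit, fell by 1.00 (SE 0.13, adjusted p = 3.7e-12), and LYN, a Src-family kinase, by 1.03 (SE 0.17, adjusted p = 6.6e-08). PIK3R1, the regulatory subunit, fell by 1.61 (SE 0.49, adjusted p = 0.0052) on 4, 0 and 2 m5C-IP counts. INPP5D, the phosphatase SHIP1, rose by 1.36 (SE 0.34, adjusted p = 0.00056), while FES, a tyrosine kinase, was called higher on 5 m5C-IP counts in all. ABR, the gene most related to BCR, is also among the 3 that rose, on 7 m5C-IP counts in all. With 21, 23 and 22 Input counts ABR passed the filter on low counts only with its m5C-IP libraries, so its call is not a test. In Input 19 of 30 were higher in K562 and 10 lower, where 44% and 49.4% of all genes were.

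Of MYC partners and factors of its turnover, 21 of 22 were tested in K562, and 2 fell and 0 rose at an adjusted p of 0.05 by edgeR, with a median log2 of -0.26, where 16.8% and 15% of all genes were called. At an unadjusted p of 0.05 these counts were 5 and 1, and by DESeq2 1 and 1. The 2 called lower by edgeR were FBXW7, the ubiquitin ligase subunit that recognises MYC, which fell by 0.91 (SE 0.17, adjusted p = 1.4e-06), and MGA, which competes for the partner MAX and fell by 0.54 (SE 0.21, adjusted p = 0.031). Of textbook targets of MYC, 5 of 24 were called higher and 3 lower in K562, near the shares of 15% and 16.8% over all genes, with a median of 0.25. At an unadjusted p of 0.05 the counts were 6 and 4, and by DESeq2 6 and 2. PTMA, prothymosin, rose by 1.96 (SE 0.25, adjusted p = 1.5e-11) and NCL, nucleolin, by 1.72 (SE 0.19, adjusted p = 1.2e-14), and TERT, telomerase reverse transcriptase, rose by 1.75 (SE 0.59, adjusted p = 0.015) on 5, 4 and 1 counts. POLR1B, an RNA polymerase I subunit, fell by 1.47 (SE 0.43, adjusted p = 0.0037) on 4, 4 and 0 m5C-IP counts. EIF4E fell by 0.81 (SE 0.27, adjusted p = 0.012) on 3, 11 and 10, and TFRC, the transferrin receptor, by 0.55 (SE 0.15, adjusted p = 0.0017). In mESC 25 of 27 targets were lower and 1 higher, where 42.1% and 39.9% of all genes were. This was not particular to MYC targets. In mESC 9 of 9 tested pluripotency markers were lower, as were 17 of 22 MYC partners and turnover factors, with 1 higher. Of tested erythroid and myeloid markers 5 of 6 were higher there. Between lines, 15 of 27 targets had a higher m5C-IP/Input in K562 than in mESC and 0 a lower one by edgeR. The median difference was 1.30, where 16.5% and 14.5% of all genes were called. At an unadjusted p of 0.05 the counts were 17 higher and 0 lower, and by DESeq2 17 and 2.

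The other nuclear pore genes had a lower median m5C-IP/Input than NUP214 in K562, though AAAS, a pore gene named after its values were seen, had a higher value of 0.66 (SE 0.34, adjusted p = 0.14). Of 31 tested of 33, 16 fell, 0 rose and 15 were not called by edgeR, with a median of -0.59, while NUP214 had 0.09 and 16.8% of all genes were called lower. At an unadjusted p of 0.05, 18 fell and 0 rose, and by DESeq2 8 fell and 1 rose. NDC1, which anchors the pore in the membrane, fell by 1.16 (SE 0.25, adjusted p = 6.7e-05), and NUP54 and NUP58, both of the central channel, by 0.98 (SE 0.34, adjusted p = 0.016) and 0.89 (SE 0.29, adjusted p = 0.010). NUP54 took 6, 3 and 5 m5C-IP counts and NUP58 9, 5 and 6. In mESC 30 of 31 fell, where 42.1% of all genes were called lower, with a median of -2.17 against -1.88 for Nup214. The difference between the lines was called higher in K562 for 14 of 30 and lower for 0 by edgeR (19 and 0 at an unadjusted p of 0.05, 13 and 0 by DESeq2), where 16.5% of all genes were called higher, with a median of 1.01 against 1.35 for NUP214. In Input 6 of 30 pore genes were higher in K562 and 21 lower, where 44% and 49.4% of all genes were, with a median of -0.22 against 1.62 for NUP214.

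Other genes matched the profiles of the members over the 12 libraries. Among 9517 shared genes with at least 5 CPM in each line, the smallest Euclidean distances between centred log2(CPM + 1) profiles were 0.819 for BCR (MLXIP), 0.674 for ABL1 (PPARD), 0.576 for NUP214 (GOLGA2), 0.915 for MYC (SS18L1) and 0.453 for PVT1 (MRPS27). Next came FADS1 and ARHGEF2 for BCR, MGAT1 and TRAF2 for ABL1, NDUFA10 for NUP214, ZC3HAV1 and GTF3C5 for MYC, and ARL15 and POU2F1 for PVT1. ARL15, for example, went from 1511 CPM in K562 Input to 942 in K562 m5C-IP and from 2479 to 1060 in mESC.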

How the data were processed

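Libraries of caRNA, with and without m5C pull-down, were compared in K562 and mESC. The submitters' processing notes name Trimmomatic 0.39, HISAT2 2.1.0 and SAMtools 1.16.1, and the builds mm10 and hg38. Per the methods of the study, trimmed reads were mapped to genome and spike-ins, Picard removed duplicates, and MACS2 called peaks on each strand. The deposited tables hold whole-number counts per gene as made by the authors and, for mESC m5C-IP, peak positions with a strand per library. Whether duplicates were removed before counting was not given in the sources used here. Spike-ins were not used here, so values are relative within a library. Summary lines that name no gene, 19.0% to 71.7% of records per library, stayed out of library sizes and tests.

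Symbols, positions and GC content came from GENCODE 44 and M21, which matched 99.2% of human and 99.9% of mouse identifiers and are other releases than the counting used. Every test across genes used edgeR 4.0.16 (R 4.3.3; quasi-likelihood F test, TMM scaling, filterByExpr, Benjamini-Hochberg at 0.05) on the whole table, within each line, for the interaction over 12 libraries, and for Input between lines. The standard error is the absolute log2 divided by the square root of F. The scripts were tested on simulated data. Ratios used exact permutation tests in scipy 1.17.1. Intervals and floors cover counting error only. Sequences were read from the RefSeq GRCm38 genome. Alternatives were RLE scaling, library size alone, DESeq2 1.42.0, no filter, TMM in 10 GC bins, thinned Input, a replicate block and each library left out.

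Named genes were the 5 members, up to 3 called genes per direction and list with a mean of at least 5 CPM in K562, up to 2 tested neighbours per side within 500 kb, and the 3 most similar profiles. Of these, the text gives a selection, and some items are not reported here. Members, lists and tests were chosen with earlier results of these data known.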

Additional observations from a re-analysis of the deposited data

Results flagged for a closer look

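The pull-down effect differed between K562 and mESC for 3 of the 5 genes by the interaction term of edgeR over 12 libraries, where 16.5% of all genes were called higher and 14.5% lower. Of these, NUP214 alone kept its call in every alternative run, and ABL1 and PVT1 lost theirs in 4 of 8, down to 0.0036 and 0.044. The log2 m5C-IP/Input of NUP214 was higher in K562 by 1.35 (adjusted p = 2.3e-08), on values of 0.09 in K562 and -1.88 in mESC. That of ABL1 was higher by 0.56 (adjusted p = 0.00068), on 0.11 and -1.08. That of PVT1 was higher by 0.55 (adjusted p = 0.020), on -0.81 and -1.98, so the gene was lower in m5C-IP in both lines. These differences were fitted with 1 scale over all 12 libraries and so are not the plain subtraction of the values within each line. The median difference over all genes was 0.17. The PVT1 to ABL1 ratio within libraries changed by -0.94 in K562 and -0.92 in mESC, and the NUP214 to ABL1 ratio by -0.01 and -0.82. Cell line, organism and annotation cannot be told apart in these differences. Outliers within a group were not tested, since every group holds 3 libraries.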

How the results depend on the processing

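The Input contrast between lines kept its direction and call for all 5 genes in every alternative run. PVT1 and NUP214 in mESC and the difference for NUP214 did so too, over log2 values of -2.42 to -0.69, -2.32 to -0.58 and 0.89 to 1.41. Other results moved with the scale or the filter, and no cause was tested. For K562 m5C-IP/Input, RLE scaling gave ABL1 0.23 (now called), library size alone gave ABL1 0.32 and NUP214 0.31, and DESeq2 gave ABL1 0.23 and NUP214 0.22, all called. No filter turned BCR to -0.093, ABL1 to -0.23, NUP214 to -0.25 and MYC to -0.10, with ABL1 and NUP214 called lower and the median of all genes at -0.71. TMM in GC bins turned BCR to -0.14 and MYC to -0.016 and called NUP214 at 0.26. Thinned Input called ABL1 and NUP214 at 0.51 each and lost PVT1 at -0.27 (adjusted p = 0.30). BCR lost its call at 0.25 with the K562 Input libraries summed as 1 sample, a setting chosen after seeing the data. In mESC, RLE scaling lost BCR at -0.25 and turned MYC to 0.059, DESeq2 turned MYC to 0.059, library size alone turned BCR to 0.56 and MYC to 0.86 and lost ABL1 at -0.11, and thinned Input turned BCR to 0.94 and ABL1 to 0.32. For the difference between lines, ABL1 and PVT1 lost their calls with RLE (0.12 and 0.11), library size alone (0.25 and 0.24), DESeq2 (0.12 and 0.11) and thinned Input (0.0036 and 0.044), and BCR turned to -0.40, -0.27, -0.40 and -0.33 in these. MYC was not tested in the thinned fits within a line, since too few counts were left.

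Leaving out each library gave BCR 0.22 to 0.27 in K562 and -0.53 to -0.29 in mESC, MYC -0.22 to 0.51 in K562 and -0.34 to 0.13 in mESC (turned without K562 m5C-IP replicate 1 and without mESC m5C-IP replicate 2), and differences of -0.078 to 0.18 for BCR and 0.38 to 0.64 for PVT1. The difference for BCR turned without mESC m5C-IP replicate 3 or K562 m5C-IP replicate 2. In mESC the call for BCR ended without Input replicate 2 or 3 or m5C-IP replicate 3. Genes called in K562 numbered 4627, 8237 with no filter, 503 with thinned Input and 3026 with the Input libraries summed. In mESC 16591 became 6146 with thinned Input, and for the difference 4407 became 1703. Thinning tests fewer genes by construction.

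The main fits did not pair samples by replicate number. The correlation of deviations between same-numbered Input and m5C-IP libraries was 0.0044 to 0.030. Values this small do not settle whether the libraries are paired, since counting noise also lowers them. Every library correlated best with its own number, a hint from the data and not from the design. With the replicate block BCR lost its call in K562 (0.24, adjusted p = 0.087) and in mESC (-0.43, adjusted p = 0.054), other members kept theirs, and 3995, 15435 and 4499 genes were called in K562, in mESC and for the difference. Depth limits MYC most, at 5 to 13 counts per m5C-IP library.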
